A study of Mus musculus with 15 samples.

Results

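The miRNAs mmu-miR-155, mmu-miR-146a and mmu-miR-146b, called miR-155, miR-146a and miR-146b here, are 3 of the 567 mouse miRNAs on an Agilent miRNA array, which was hybridized with RNA of 15 mouse liver grafts. They were taken by their names on the array, as miRNAs that NF-kB induces in activated immune cells. No measured value entered that rule, but earlier results of these data were known when it was made. Livers of B10.BR donors were transplanted into B10.D2 recipients, a pair that differs in the major histocompatibility complex, and no immunosuppressant was given per the study's methods. Allografts were taken on day 5, day 8, day 14 and day 100, and syngeneic grafts on day 5, with 3 male mice in each of the 5 groups. The strain labels of the 3 syngeneic arrays name the same allogeneic pair, so their group rests on the titles, and which strain served for the control grafts is not settled here. The age of the mice was not given in the sources used here. Since the only controls are of day 5, the time after surgery and the allogeneic graft cannot be told apart on day 8, day 14 and day 100.

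NF-kB is a transcription factor that toll-like receptors, cytokine receptors and antigen receptors activate. miR-155 is cut from the noncoding transcript of its host gene, rises in activated lymphocytes, macrophages and dendritic cells, and represses Socs1 and Inpp5d, brakes on cytokine and phosphoinositide signaling. miR-146a and miR-146b come from separate genes, and miR-146a represses Traf6 and Irak1, which carry the signal from toll-like receptors to NF-kB, so that it acts as a negative feedback on the pathway that induces it.

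The mature sequences show how the 3 miRNAs relate to each other. They were read from RefSeq (GRCm38.p6) and are written 5′ to 3′, with the seed (bases 2 to 8), which pairs with target mRNAs, in capitals.
miR-155: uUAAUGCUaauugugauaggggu
miR-146a: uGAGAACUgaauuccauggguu
miR-146b: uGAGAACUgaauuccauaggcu
miR-155 lies at chr16:84714143-84714165 on the plus strand, within the span of the long noncoding RNA gene Mir155hg. miR-146a lies at chr11:43374435-43374456 on the minus strand. miR-146b lies at chr19:46342790-46342811 on the plus strand, within the span of the long noncoding RNA gene Gm36493. Among the 1738 mature mouse miRNAs of that table, the miR-155 seed occurred once and the miR-146 seed was held by miR-146a and miR-146b alone. miR-146a and miR-146b were identical at 20 of 22 bases. They differed by G18A and U21C, where positions count from the 5′ end, the first base is that of miR-146a and the last that of miR-146b. The files hold no probe sequences, so whether a probe for one of them also binds the other was not tested.

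Each of the 3 miRNAs had 2 probes and 20 spots per array. For each probe the background-subtracted intensity was averaged over its spots, and the probes of a miRNA were summed. The scale of each array was set by the 75th percentile of the 52 mouse miRNAs that all 15 arrays detected. Detection on an array asked that, for 1 probe or more, a share of 0.5 or more of the spots be well above background. Scaled signals under a floor of 0.0270, which is -5.21 on the log2 scale, were raised to it. No spot was saturated. In replicate 1 of day 100 the software's estimate of additive error was 13.1, against 2.67 to 3.66 on the other arrays, and 60 mouse miRNAs were detected on it, against 71 to 115 on the others. The lowest detected scaled signal on that array was -3.82 on the log2 scale. Of the hepatocyte miRNAs listed, 4 of 5, miR-122 included, were detected on all arrays. The arrays lay on 2 slides: slide 1 held day 8, day 14 and syngeneic replicates 1 and 2, and slide 2 held day 5, day 100 and syngeneic replicate 3.

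miR-155 was not detected in the syngeneic grafts and was detected on every array of day 5, day 8 and day 14. The unscaled intensity of miR-155 in the syngeneic grafts was 1.09, 0.75 and 3.56, all under the floor after scaling. On day 5 it was 40.9, 57.3 and 37.7, on day 8 it was 64.0, 82.9 and 71.3, and on day 14 it was 127.2, 83.2 and 67.1. On day 100 it was -42.4, 16.8 and 25.1, and of these arrays only replicate 3 had miR-155 well above background. The negative value belongs to the array with the high additive error. The lowest detected scaled signal of that array was above the level of miR-155 on 2 of the 3 arrays of day 5 and on replicate 3 of day 14.

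After scaling, the log2 signal of miR-155 was -4.44, -4.05 and -3.60 on day 5, with a mean of -4.03 ± 0.42 (SD, n = 3). It was -3.49, -3.23 and -3.54 on day 8 (-3.42 ± 0.17) and -2.69, -3.17 and -3.92 on day 14 (-3.26 ± 0.62). On day 100 it was -5.21, which is the floor, -4.94 and -4.94. All arrays of day 5, day 8 and day 14 lay above all syngeneic arrays, which held for 21.4%, 33% and 33% of the miRNAs tested, and above all day 100 arrays, which held for 33%, 40.8% and 39.8%. Day 14 had the widest spread of the 3 groups and overlapped with day 8 and day 5.

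**Figure D1:**
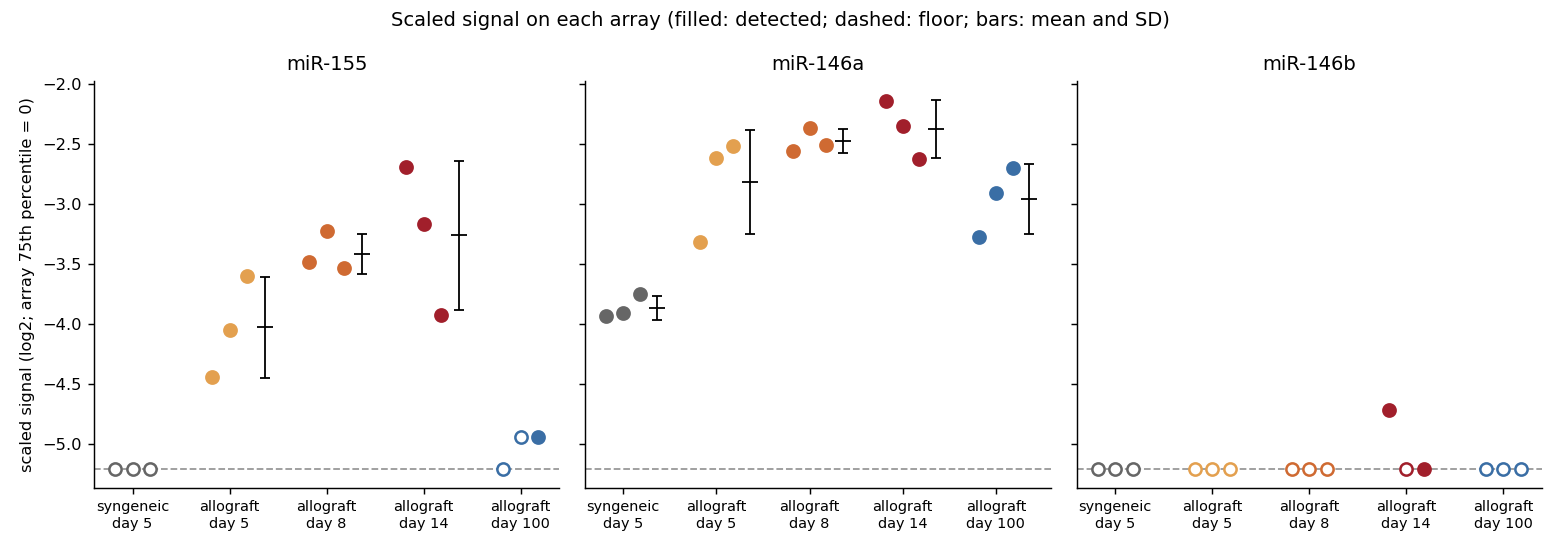
Scaled signal (log2, with the array's 75th percentile at 0) of miR-155, miR-146a and miR-146b on the 15 arrays. Each point is 1 array, filled where the miRNA was detected, the dashed line is the floor at -5.21, and the bars give the mean and SD of groups with no array at the floor. miR-155 is at the floor in the 3 syngeneic grafts, miR-146a is above the floor on all 15 arrays, and miR-146b rises above the floor on 1 array of day 14.

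miR-146a, unlike miR-155, was detected on all 15 arrays, the syngeneic grafts included. Its scaled log2 signal was -3.94, -3.91 and -3.75 in the syngeneic grafts (-3.87 ± 0.10, SD, n = 3). It was -3.31, -2.62 and -2.52 on day 5 (-2.82 ± 0.43), -2.56, -2.37 and -2.51 on day 8 (-2.48 ± 0.10) and -2.14, -2.36 and -2.63 on day 14 (-2.38 ± 0.24). On day 100 it was -3.27, -2.91 and -2.70 (-2.96 ± 0.29). Every allograft array, those of day 100 included, lay above every syngeneic array. Such a separation held for 21.4%, 33%, 33% and 12.6% of the miRNAs tested on day 5, day 8, day 14 and day 100. The unscaled intensity of miR-146a ran from 26.3 to 45.7 in the syngeneic grafts, from 79.6 to 154.1 on day 5, from 121.7 to 150.5 on day 8, from 146.4 to 186.0 on day 14 and from 68.7 to 119.0 on day 100.

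miR-146b, which shares its seed with miR-146a, stayed near background. Its unscaled intensity was -2.14, -0.312 and 2.30 in the syngeneic grafts. It was 13.9, 12.6 and 6.55 on day 5, and 10.2, 16.1 and 12.7 on day 8. On day 14 it was 31.3, 19.5 and 26.2, and on day 100 it was -50.8, 0.277 and 2.00. Only replicates 1 and 3 of day 14 had miR-146b well above background, so it did not pass the filter for testing, and 2 of the 3 miRNAs were tested. The star strand of miR-146b was detected on 0 of 15 arrays, and the array holds no star strand of miR-146a or miR-155.

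The probes of each miRNA differed in brightness, and in each case 1 probe carried most of the signal. For miR-155, probe A_54_P2337 averaged 52.9 to 100.6 over its spots on the day 14 arrays and probe A_54_P2336 averaged 14.2 to 26.6. In the syngeneic grafts the same probes averaged 0.00107 to 3.24 and -1.46 to 1.09. Both probes of miR-155 were thus brighter on each day 14 array than on each syngeneic array. All these probe intensities are unscaled, and the 75th percentile that set the scale was itself higher on day 14 (750 to 1018) than in the syngeneic grafts (395 to 616). For miR-146a, probe A_54_P2317 had all its spots well above background on all 15 arrays and went from 21.7 to 37.6 in the syngeneic grafts to 124.1 to 155.4 on day 14. Its other probe, A_54_P2318, went from 4.54 to 8.10 to 22.3 to 30.6. For miR-146b, probe A_54_P2006 alone had spots well above background: on day 14 these were 8 of 8, 4 of 10 and 10 of 10 spots in replicates 1, 2 and 3. The other probe, A_54_P2005, had 0 such spots on all 15 arrays.

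**Figure D2:**
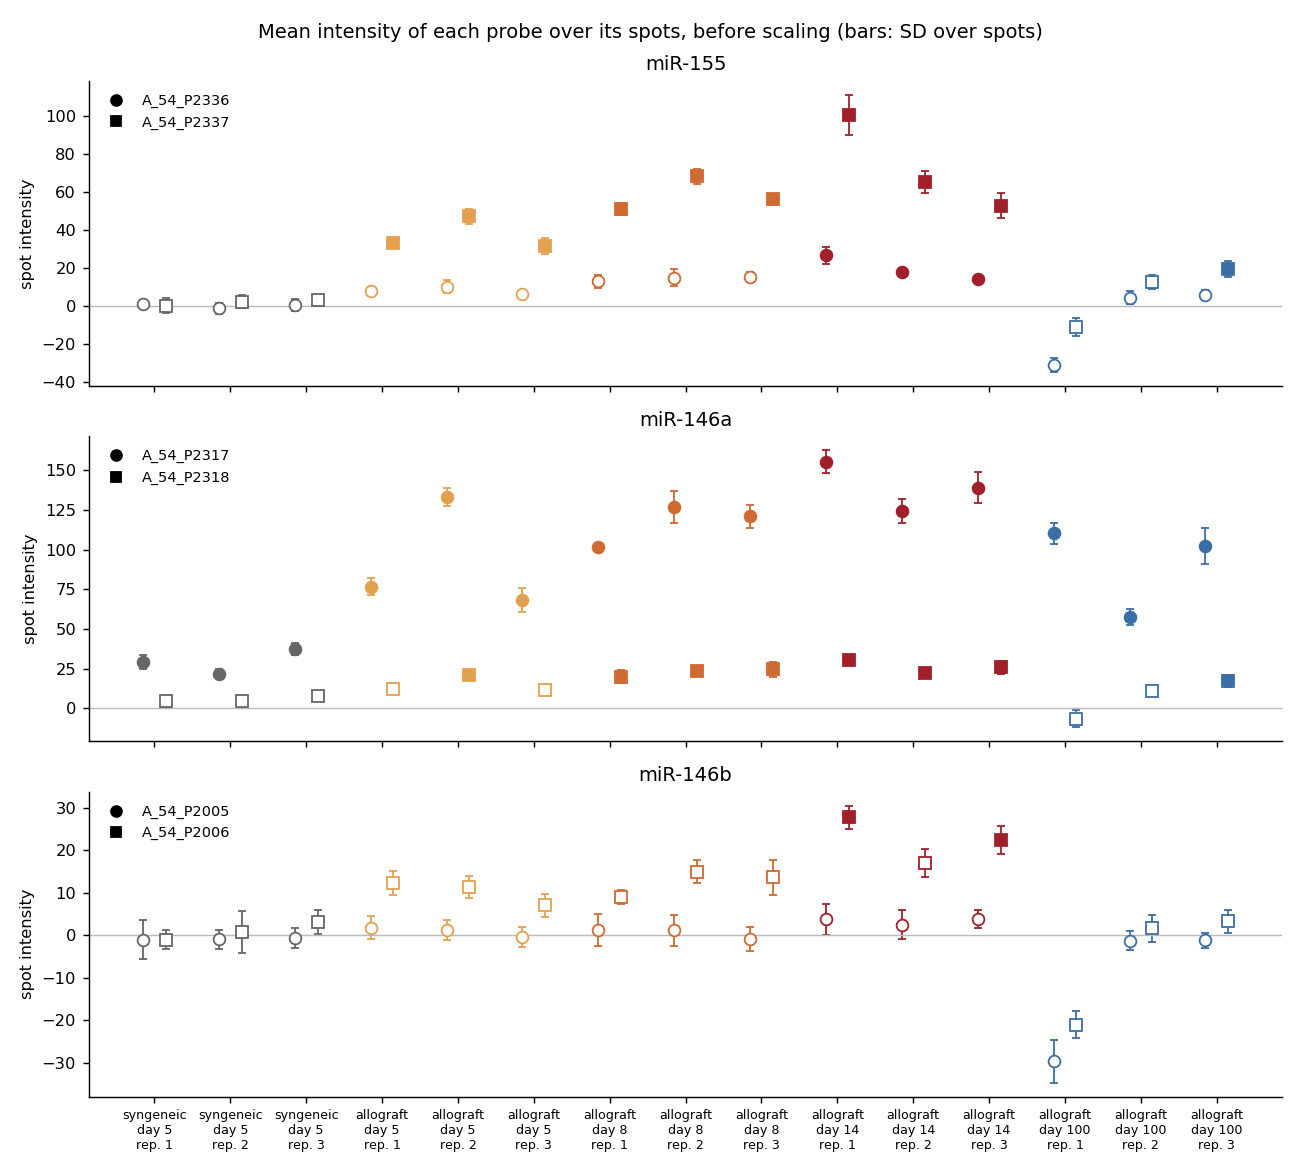
Mean intensity of each of the 2 probes of miR-155, miR-146a and miR-146b on the 15 arrays, before scaling, with the SD over the spots of the probe as bars. Filled points are probes with at least 0.5 of their spots well above background. In each miRNA 1 probe is brighter than the other, and replicate 1 of day 100 gives negative means for both probes of miR-155 and of miR-146b.

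The comparison of each allograft group with the syngeneic grafts asks which miRNAs differ from the day 5 controls, with time after surgery included on the later days. All 4 comparisons share the same 3 control arrays. They were fitted with limma over 103 mouse miRNAs, those that the 3 arrays of some group all detected, with p-values adjusted over all 103. miR-155 and miR-146a were both called higher on day 5, when 18.4% of the 103 miRNAs were called higher, on day 8 (23.3%) and on day 14 (27.2%). On day 100, when 16.5% were called higher, miR-146a was called and miR-155 was not. miR-155 passed the filter only through day 5, day 8 and day 14, and its values in the controls were all set to the floor. Its calls against the controls and against day 100, and its rank in the F test that follows, are therefore not independent of the filter. In a moderated F test over the 4 comparisons, which called 64.1% of the 103 miRNAs, miR-155 ranked 6 (adjusted p = 0.000160) and miR-146a ranked 12 (adjusted p = 0.000696). miR-146a is also 1 of the 10 miRNAs that the study chose on these samples, so its rise is not independent evidence.

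miR-155 was at least 1.78-fold higher on day 5 than in the syngeneic grafts, at least 2.71-fold on day 8 and at least 3.02-fold on day 14. These are lower bounds, since miR-155 was undetected in the controls: the allograft mean was set against the mean of the lowest detected signal on each control array. The fitted log2 differences, taken from the floor, were 1.18 on day 5 (SE 0.27, adjusted p = 0.00755), 1.79 on day 8 (adjusted p = 0.000286) and 1.95 on day 14 (adjusted p = 7.87e-05). On day 100 the difference was 0.18 (95% interval -0.41 to 0.76, adjusted p = 0.642), with no fold given because 2 of the 3 arrays and all controls were undetected. Without replicate 1 of day 100 it was 0.27 (adjusted p = 0.511). With the floor divided by 4, the fitted differences were 3.18, 3.79 and 3.95 on day 5, day 8 and day 14, and that of day 100 was 1.51 (adjusted p = 0.0388). The SE was then 0.51. The SE of miR-155 rests on the spread within all 5 groups, and the controls, all set to the floor, show none. Its SE, intervals and p-values therefore depend on the floor.

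miR-146a was 2.07-fold higher on day 5 than in the syngeneic grafts (log2 1.05, SE 0.21, adjusted p = 0.00708). It was 2.61-fold higher on day 8 (log2 1.39, adjusted p = 0.000315) and 2.81-fold higher on day 14 (log2 1.49, adjusted p = 8.15e-05). On day 100, when the arrays of 12.6% of the 103 miRNAs all lay above the controls, as those of miR-146a did, it was still 1.87-fold higher (log2 0.91, 95% interval 0.44 to 1.37, adjusted p = 0.0113). Without replicate 3 of day 100 that difference was 0.78 with an adjusted p of 0.0554, and without replicate 1, the array with the high additive error, it was 1.06 (adjusted p = 0.00705).

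Within slides, day 8 and day 14 could be set against the syngeneic arrays of slide 1. The differences of miR-155 there were 1.79 (adjusted p = 0.00332) and 1.95 (adjusted p = 0.00182), and those of miR-146a were 1.44 (adjusted p = 0.000520) and 1.55 (adjusted p = 0.000361). Slide 2 held 1 syngeneic array, which was assumed to vary like the other groups. There the day 5 difference of miR-155 was 1.18 (adjusted p = 0.122), and those of miR-146a were 0.93 on day 5 (adjusted p = 0.213) and 0.79 on day 100 (adjusted p = 0.283). With slide as a block over all arrays, the day 5 calls of both miRNAs (adjusted p = 0.0945 for each) and the day 100 call of miR-146a (0.79, adjusted p = 0.115) were also lost, while the calls of day 8 and day 14 held. After normexp background correction, which adds an offset of 50 to every spot, neither miRNA was called in any comparison with the syngeneic grafts. The correction was run on median spot and background intensities. In the background-subtracted intensities used elsewhere, the probes of miR-155 averaged no more than 3.24 in the syngeneic grafts, and those of miR-146a no more than 37.6. Why the calls were lost was not tested.

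**Figure D3:**
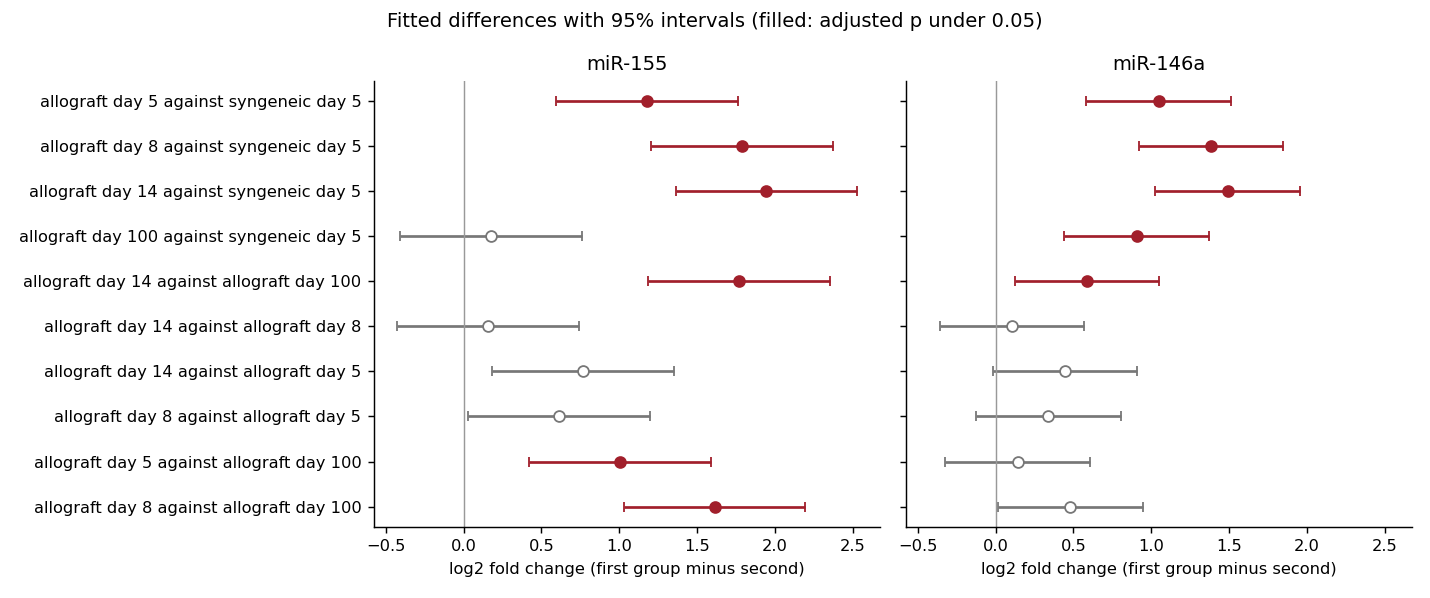
Fitted log2 differences of miR-155 and miR-146a in 10 comparisons, the first group named minus the second, with 95% intervals from limma. Filled red points have an adjusted p under 0.05. Both miRNAs are past the threshold on day 5, day 8 and day 14 against the syngeneic grafts, and on day 100 miR-146a is at 0.91 while miR-155 is at 0.18.

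The comparisons between allograft days ask whether the miRNAs that rose early stayed up in accepted grafts. Both tested miRNAs were called higher on day 14 than on day 100, as were 33% of the 103 miRNAs. miR-155 was detected on 1 of the 3 day 100 arrays, so no fold is given. It passed the filter only through day 5, day 8 and day 14, so its calls against day 100 are not independent of the filter. Its fitted log2 difference between day 14 and day 100 was 1.77 (SE 0.27, 95% interval 1.18 to 2.35, adjusted p = 0.000525), and 1.68 without replicate 1 of day 100 (adjusted p = 0.00305). It was also higher on day 8 than on day 100 by 1.61 (adjusted p = 0.00144), when 16.5% of the 103 miRNAs were called higher. It was higher on day 5 than on day 100 by 1.00 (adjusted p = 0.0166), when 21.4% were called higher. With the floor divided by 4, the differences of day 14, day 8 and day 5 from day 100 were 2.44, 2.28 and 1.67 (SE 0.51), all still called. The call of day 5 was lost without replicate 1 of day 100 (0.91, adjusted p = 0.0532) and without replicate 3 of day 5 (0.79, adjusted p = 0.0716), and also with the 75th percentile over all mouse miRNAs (0.86, adjusted p = 0.0788) and with the methods' t-test (adjusted p = 0.0789). Day 14 and day 100 lay on different slides. With slide as a block, which links them through the controls, the difference of miR-155 between day 14 and day 100 was 1.77 (adjusted p = 0.0295).

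miR-146a was 1.5-fold higher on day 14 than on day 100 (log2 0.59, SE 0.21, 95% interval 0.12 to 1.05, adjusted p = 0.0371), and its day 14 arrays all lay above those of day 100, as held for 39.8% of the 103 miRNAs. Its call was lost with slide as a block (0.76, adjusted p = 0.212). It was also lost without replicate 1 of day 100 (0.43, adjusted p = 0.145), replicate 2 of day 100 (0.61, adjusted p = 0.0623), replicate 1 of day 14 (0.47, adjusted p = 0.139), replicate 2 of day 14 (0.58, adjusted p = 0.0820) or replicate 3 of day 8 (0.59, adjusted p = 0.0504). The differences of miR-146a from day 100 were 0.48 on day 8 (adjusted p = 0.121) and 0.14 on day 5 (adjusted p = 0.681), neither of them called.

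For miR-146a, the means of the scaled log2 signal were lowest in the syngeneic grafts, followed by day 100, day 5, day 8 and day 14. For miR-155, day 5, day 8 and day 14 came in the same order above day 100 and the syngeneic grafts, whose order is not settled, since the values there were at or near the floor. Not all neighbors in these orders differed beyond their spread. For miR-155, the syngeneic grafts and day 100 were not distinguished, nor were day 5 and day 8 (0.61, 95% interval 0.026 to 1.19, adjusted p = 0.203), nor day 8 and day 14 (0.16, 95% interval -0.43 to 0.74, adjusted p = 0.797). For miR-146a, day 100 and day 5 were not distinguished, nor were day 5 and day 8 (0.34, 95% interval -0.12 to 0.80, adjusted p = 0.303), nor day 8 and day 14 (0.10, 95% interval -0.36 to 0.57, adjusted p = 0.80). From day 5 to day 14 the difference was 0.77 for miR-155 (95% interval 0.18 to 1.35, adjusted p = 0.0757) and 0.44 for miR-146a (95% interval -0.020 to 0.91, adjusted p = 0.169), and neither was called. That of miR-155 passed the threshold with median scaling (0.84, adjusted p = 0.0439), without replicate 3 of day 5 (0.98, adjusted p = 0.0425) and without replicate 3 of day 14 (1.1, adjusted p = 0.0107). Between these days few of the 103 miRNAs were called higher on the later one: 0.971% from day 5 to day 8, 0% from day 8 to day 14 and 2.91% from day 5 to day 14.

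For miR-146b, which was detected on no array other than 2 of day 14, the scaled signal is given on the linear scale with no test. It was -0.00416 to 0.00374 in the syngeneic grafts, 0.0132 to 0.0157 on day 5, 0.0142 to 0.0207 on day 8, 0.0257 to 0.0381 on day 14 and -0.0506 to 0.00259 on day 100. All these signals but that of replicate 1 of day 14 were under the floor used for the other miRNAs, so no fold change and no order of the groups is given.

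A list of further miRNAs that NF-kB or toll-like receptors are known to regulate held 18 besides the 3 described, of which 10 were tested. The remaining 8, which were miR-9, miR-9*, miR-132, miR-147, miR-222, miR-125a-5p, miR-99b and miR-181b, were detected on 0 of 15 arrays. Of the 10, those called higher than in the syngeneic grafts numbered 1 on day 5 and 3 on each later day, and those called lower numbered 2 on day 100 and 1 on each earlier day. Over the 103 miRNAs, 18.4%, 23.3%, 27.2% and 16.5% were called higher and 6.8%, 17.5%, 18.4% and 14.6% lower on day 5, day 8, day 14 and day 100. Their median log2 difference was 0.34, 0.17, 0.077 and 0.067 on the 4 days, beside 0.12, 0.14, 0.074 and 0 over all 103 miRNAs.

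Within that list, miR-223, an miRNA of myeloid cells, rose by 1.86, 1.99, 2.38 and 0.80 on the 4 days. miR-221 rose by 0.83 on day 8 and 0.95 on day 14, and miR-210, an miRNA that hypoxia induces, rose by 1.15 and 1.17 on these days from means at the floor. miR-212 was lower on all 4 days, by fitted differences of -1.30, -1.65, -1.65 and -1.62, and its mean was at the floor on day 8 and day 14 and at -5.18 on day 100, so these differences depend on the floor. miR-21, miR-125b-5p and miR-10a were called on day 100 only, at -0.75, 0.80 and 0.98. miR-21 is raised in many inflamed and proliferating tissues, and on day 5 it was at 0.48 (adjusted p = 0.135). Between day 14 and day 100, 5 of the 10 were called higher on day 14, as were 33% of the 103, namely miR-21 (0.78), miR-210, miR-221 (0.79), miR-223 (1.58) and miR-301a (1.59), and miR-10a (-0.85) and miR-125b-5p (-0.92) were lower, as were 18.4% of the 103.

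Of 6 miRNAs of leukocytes listed, 4 were tested, and miR-150 and miR-342-5p were detected on 0 of 15 arrays. miR-150 is abundant in resting lymphocytes. All 4 tested were called higher on day 5 and day 14, and 2 on day 8 and on day 100, where 18.4%, 27.2%, 23.3% and 16.5% of the 103 miRNAs were called higher in turn. The medians of the 4 were 1.93, 1.32, 2.18 and 0.48 on day 5, day 8, day 14 and day 100, beside 0.12, 0.14, 0.074 and 0 over all 103. miR-342-3p rose by 2.30, 3.34, 4.04 and 1.67, while miR-142-3p was at 1.98, 0.65, 1.33 and 0.15 and miR-142-5p at 1.89, 0.56, 1.98 and 0.042. Both miR-142 strands, made in all blood cell lineages, thus passed the threshold on day 5 and day 14 and missed it on day 8 and day 100. In the syngeneic grafts, as on day 100, only 2 of the list were detected on all 3 arrays. The syngeneic means of miR-342-3p and miR-142-5p were -5.055 and -4.342, with the floor at -5.21. The rises of miR-342-3p thus depend on the floor, and calls of members not detected on all controls are not independent of the filter. The summed scaled signal of the list was 0.714 to 1.78 in the syngeneic grafts, 3.06 to 8.15 on day 5, 2.19 to 2.64 on day 8, 3.09 to 4.2 on day 14 and 1.20 to 1.55 on day 100. In RNA of a whole graft, more cells of a type and more of the RNA per cell cannot be told apart, and the part of leukocyte number in the rise of miR-155 and miR-146a was not tested.

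Of 4 hepatocyte miRNAs tested, 3 were called lower on day 5, all on day 8 and day 14, and 2 in the day 100 grafts, where 6.8%, 17.5%, 18.4% and 14.6% of the 103 miRNAs were called lower in turn. Their medians on the 4 days were -0.45, -0.45, -1.02 and -0.39, beside 0.12, 0.14, 0.074 and 0 over all 103. Their list's summed scaled signal was 30.1 to 35.8 in the syngeneic grafts, 21.9 to 26.0 on day 5, 22.9 to 24.7 on day 8, 13.4 to 17.2 on day 14 and 23.3 to 27.8 on day 100. On day 14 it was thus lower on each array than on any array of another group. Of 2 erythroid miRNAs tested, miR-451 was called higher on day 5, day 8 and day 14, miR-144 was called lower on day 8, and neither was called on day 100. Of 2 stromal and endothelial miRNAs tested, miR-126-3p and miR-214, neither was called on any day. The part of these lists in the differences of miR-155 and miR-146a was not tested.

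**Figure D4:**
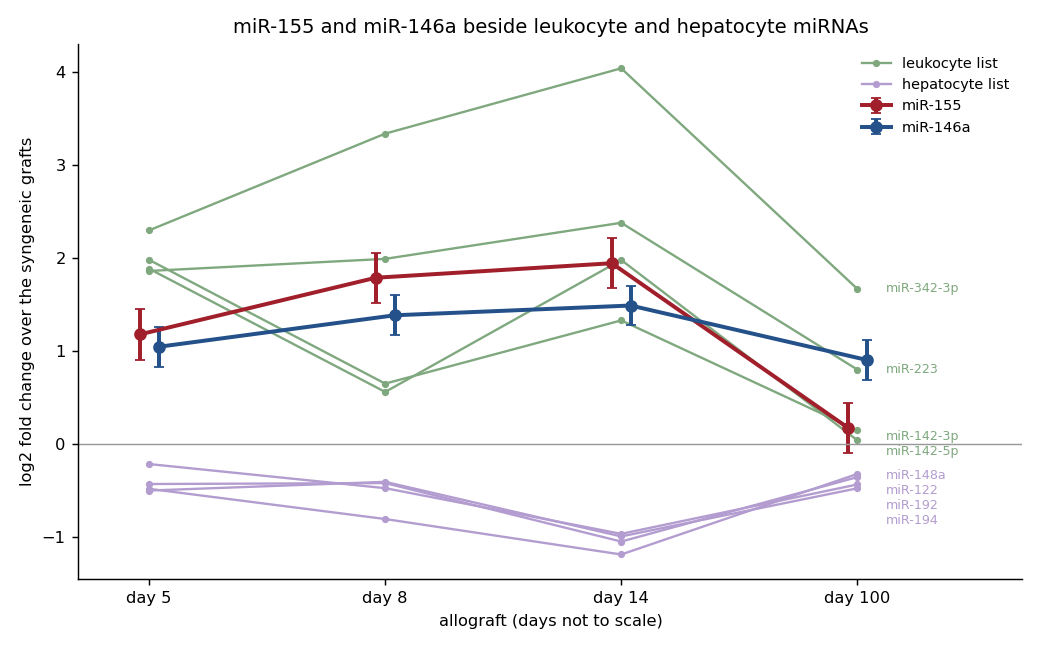
Fitted log2 differences from the syngeneic grafts on allograft day 5, day 8, day 14 and day 100 for miR-155 and miR-146a (thick lines, bars are SE) and for the 4 tested leukocyte and 4 tested hepatocyte miRNAs (thin lines). On day 100 miR-146a is at 0.91, between miR-342-3p at 1.67 and miR-223 at 0.80, and miR-155 is at 0.18, beside miR-142-3p at 0.15.

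The tested miRNAs whose scaled log2 signal over the 15 arrays was most like that of miR-155 were miR-210 (Pearson's r = 0.97), miR-93 (0.93) and miR-188-5p (0.92). For miR-146a they were miR-15b (0.95), miR-342-3p (0.94) and miR-652 (0.91). These are descriptions over 15 arrays that share 5 groups and 1 scaling factor per array. Values at or near the floor enter those of miR-155: its syngeneic mean and that of miR-210 were -5.21, and that of miR-93 was -5.16. miR-155 and miR-146a correlated with each other at 0.87, which was rank 7 for miR-155 and rank 9 for miR-146a. The miRNAs nearest to miR-155 had day 100 differences from the syngeneic grafts that were not called: 0.12 for miR-93 (adjusted p = 0.599) and -0.29 for miR-188-5p (adjusted p = 0.632), with miR-210 at the floor in both groups. Those nearest to miR-146a were all called on day 100, at 1.48 for miR-15b (adjusted p = 0.00116), 1.67 for miR-342-3p and 0.79 for miR-652 (adjusted p = 0.0195). The nearest miRNAs were picked on these same arrays, syngeneic and day 100 included. Their likeness to miR-155 or miR-146a on day 100 thus follows in part from the choice and is not separate evidence.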

How the data were processed

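RNA of 15 liver grafts was labeled with Cy3 and hybridized to mouse miRNA arrays. The authors deposited spot intensity values from Feature Extraction 9.5.1.1, per the file headers, background-subtracted, on the linear scale and not normalized between arrays. The deposited table of log2 values for the whole series was not used here. Control and outlier spots were left out, and the scaling, floor, detection rule and filter are given with the results. Of the tested values, 8.28% were at the floor. The number of arrays limits the precision. Other names on the array (10, not of mouse) stayed out of the tests.

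The model, fitted in limma 3.58.1 (R 4.3.3) on all 15 arrays, had a mean for each group, with Benjamini-Hochberg adjustment over 103 miRNAs and a threshold of 0.05. Every adjusted p is from this test unless another is named. Other steps used Python 3.11.15, numpy 2.4.6, pandas 2.3.3, scipy 1.17.1 and matplotlib 3.10.9. The miRNAs described, the lists (NF-kB responsive, leukocyte, hepatocyte, erythroid, stromal) and the tests were chosen with earlier results of these data known. Named were the 3 miRNAs, their star strands, list members, and for miR-155 and miR-146a the 3 tested miRNAs with the highest correlation.

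The results were recomputed with other scalings (none, median, quantile, or the 75th percentile of every mouse miRNA), the brightest probe or the software's total signal, normexp correction (offset 50), other filters, a floor divided by 4, fits to the groups compared only, the methods' t-test, trend and robust moderation, replicate number or slide as a block, and each array left out in turn. On simulated data for the 10 comparisons, 26 to 30 of 30 miRNAs changed 3-fold among 103 were recovered, with at most 3 false calls. No arrays of a group held equal signals.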

Additional observations from a re-analysis of the deposited data

Results flagged for a closer look

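Allografts of different days differed in 4 results, each tested by the direct contrast of the days. Syngeneic grafts were taken on day 5 only, so whether the effect of the allograft itself changed between days was not tested. Day 8 and day 14 also lay on another slide than day 100. miR-155 was higher on day 14 than on day 100 by 1.77 on the log2 scale (adjusted p = 0.000525), on day 8 than on day 100 by 1.61 (adjusted p = 0.00144) and on day 5 than on day 100 by 1.00 (adjusted p = 0.0166). miR-155 was detected on 1 of the 3 day 100 arrays, and with the floor divided by 4 these differences were 2.44, 2.28 and 1.67. These calls of miR-155 are not independent of the filter, which it passed only through day 5, day 8 and day 14. miR-146a was higher on day 14 than on day 100 by 0.59 (adjusted p = 0.0371), on another slide. That call was lost with slide as a block (adjusted p = 0.212) and without any 1 of 5 single arrays. In all 4, the arrays of the earlier day lay above those of day 100, a pattern that 39.8% (day 14), 40.8% (day 8) and 33% (day 5) of the 103 miRNAs shared.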

How the results depend on the processing

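Of 602 values that the alternatives gave for miR-155 and miR-146a in 10 comparisons, 550 kept direction and side of the threshold, 40 lost the call, 4 gained one and 8 changed sign. Leaving out an array of neither group compared cannot change a difference, nor can another filter, moderation or the t-test. Part of the agreement in direction was therefore fixed in advance. With normexp correction, the differences on day 5, day 8, day 14 and day 100 were -0.076, 0.16, 0.15 and -0.25 for miR-155 and 0.043, 0.22, 0.22 and 0.11 for miR-146a. Those between day 14 and day 100 were 0.39 and 0.12. None was called, and the median of all miRNAs moved by -0.44 on day 14. Without scaling it moved by 0.63 on day 14. Other calls against the syngeneic grafts, and those between day 14 and day 100, were lost as follows, and the cause was not tested. The day 5 call of miR-155 (1.18) was lost with the methods' t-test after adjustment, with slide as a block and within slide 2. The day 5 call of miR-146a was lost with the first (1.05), with the others (0.93) and with the groups compared only (1.05). The day 100 call of miR-146a was lost with these (0.91, 0.79 and 0.91) and with the 75th percentile over all mouse miRNAs (1.02). Its call between day 14 and day 100 was lost with that scaling (0.39), quantile normalization (0.55), no scaling (0.80), the brightest probe (0.39), no filter, the groups compared only or the t-test (0.59), and slide as a block (0.76). miR-155 was called on day 100 with the floor divided by 4 (1.51), and between day 14 and day 5 with median scaling (0.84) or without replicate 3 of day 5 (0.98) or of day 14 (1.1). Its call between day 5 and day 100 was lost with the 75th percentile over all mouse miRNAs (0.86), the t-test (1.00), normexp (0.17), and without replicate 3 of day 5 or replicate 1 of day 100 (0.79 to 0.91), and that between day 8 and day 100 with normexp (0.40). With arrays left out, the day 100 difference of miR-146a ran from 0.78 to 1.06 and its difference between day 14 and day 100 from 0.43 to 0.72.

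Signs also turned where nothing was called: between day 14 and day 8 for miR-155 with normexp (-0.011) or an array left out (-0.13 to 0.49) and for miR-146a with an array left out (-0.011 to 0.23), in both without replicate 1 of day 14, and between day 5 and day 100 for miR-146a with normexp (-0.063) or an array left out (-0.015 to 0.39), namely replicate 3 of day 5 or replicate 1 of day 100. With the replicate block, the day 14 difference of miR-155 was 1.95 (adjusted p = 0.000245), and the block changed no call of either miRNA. Replicate numbers did not pair the arrays: 9 of 30 same-numbered pairs correlated over 0.1 (r from -0.649 to 0.448). Filters of detection on all 15 arrays (miR-155, miR-146b) or 1.5 times the mean (all 3) left no value. The number of miRNAs called was 26 (0 to 29 over the alternatives) on day 5, 42 (20 to 48) on day 8, 47 (21 to 55) on day 14, 32 (1 to 43) on day 100 and 53 (20 to 59) between day 14 and day 100. Signals near background limit miR-155 in the syngeneic and day 100 grafts, and miR-146b throughout.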
